A study of Bos taurus with 138 samples.

Results

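The 9 genes described here move calcium in the oocyte or read its signal, and were followed from the GV oocyte to the blastocyst in cattle: ITPR1, STIM1, STIM2, ORAI1, ATP2A2, ATP2B1, CAMK2G, PPP3CA and TRPM7. They were taken by symbol, and all 9 are among the 16706 gene symbols of the count table. Oocytes came from slaughterhouse ovaries of Bos taurus, and the stages were germinal vesicle (GV) oocytes, metaphase II (MII) oocytes matured in vitro, and 2-cell embryos, 8-cell embryos, morulae and blastocysts made by fertilization in vitro with semen of a single Holstein bull. At each of the 6 stages, lysates of cycloheximide-treated, zona-free oocytes or embryos were spread over 2 sucrose gradients, A and B, of 10 fractions each (F1 to F10). Whole oocytes or embryos of the same stage gave 3 transcriptome libraries. No stage had a genotype or a treatment that set it apart from the others, every library held many pooled oocytes or embryos, and p-values therefore measure the spread between pools and not between animals. RNA at the top of the gradient (F1 and F2) is free of ribosomes, F3 to F5 hold monosomes, and F8 to F10 hold polysomes. The polysome pool of a gradient is the sum of its F8, F9 and F10.

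At fertilization the sperm starts a series of calcium waves in the egg, and these waves bring the egg out of its meiotic arrest. IP3 receptors in the endoplasmic reticulum let calcium out of the store, STIM proteins sense the emptied store and open ORAI channels in the plasma membrane, and calcium pumps return the ion to the store or out of the cell. Calmodulin-dependent kinase II and the phosphatase calcineurin are enzymes that calcium switches on.

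Libraries held 1229382 to 17342859 counts, and summing gave polysome pools of 22543737 to 39380638 counts. Levels are CPM, counts scaled to a common library total, with TMM factors that set the bulk of genes equal between libraries, so a level is a share of the library and not an amount per embryo. Oocyte markers summed to 19500 to 23100 CPM in GV transcriptomes and to 35.0 to 159 CPM in blastocysts. Trophectoderm markers rose from 53.8 to 63.8 CPM to 5070 to 5890 CPM over the same span, so the members are measured in a mixture of cell types at the last stage, where fewer cells of a type and less RNA per cell cannot be told apart. Sperm markers summed to at most 7.43 CPM in any library, with PRM1, TNP1, ACR and SPACA1 at 0 in GV transcriptomes. Cumulus and granulosa markers summed to 532 to 675 CPM in GV and 521 to 624 CPM in MII transcriptomes, and to 915 to 956 and 598 to 975 CPM in the polysome pools. Of the 12 listed, 6 and 9 reached 1 CPM in these transcriptomes and 5 and 7 in these pools. The list also summed to 305 to 915 CPM in blastocyst transcriptomes, so a high sum was not particular to oocytes. The part of cumulus and granulosa cells in the members' levels was not tested.

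Each polysome pool was compared with the transcriptomes of its stage by the quasi-likelihood test of edgeR in 1 fit over 30 libraries, with p-values adjusted over the 14612 genes tested. A difference was called at an adjusted p below 0.05, and differences are log2 fold changes of the pool over the transcriptome. Over the 9 members and 6 stages, the pools were higher in 16 comparisons and lower in 18 of 54. In GV oocytes 2 members were higher (22.2% of all genes) and 1 was lower (17.7% of all genes). MII oocytes had 3 members higher, against 30.8% of all genes, and 4 lower, against 26.7%. For 2-cell embryos the counts were 2 higher, against 29.1% of genes, and 3 lower, against 21.9%. With 4 members higher (28.0% of genes) and 4 lower (31.0% of genes), the 8-cell stage had the most calls. Morulae had 2 members higher, against 26.5% of genes, and 3 lower, against 25.2%. In blastocysts 3 members were higher, where 20.0% of genes were, and 3 were lower, where 20.1% were. The median difference of the members was -0.25, -0.96, -1.15, -1.21, -2.21 and -1.43 from GV to blastocyst, beside 0.0, 0.0, 0.18, -0.26, 0.0 and -0.08 over all genes tested. These last values shift with the scaling, to between -0.5 and 0.01 with RLE factors and to between -0.42 and 0.1 with library totals alone, and the members' differences are relative to them. STIM1 and ORAI1 were higher in the pools at all 6 stages, as were 9.92% of all genes, and ATP2B1 was lower at all 6, as were 5.78%. The pools were deeper than the transcriptomes, which held 3269386 to 11812567 counts. With all libraries thinned to the lowest total, 10 of the 54 comparisons lost their call and 6 gained one. Pools were then higher in 9 comparisons, so the calls of STIM1 and ORAI1 did not all hold.

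**Figure D1:**
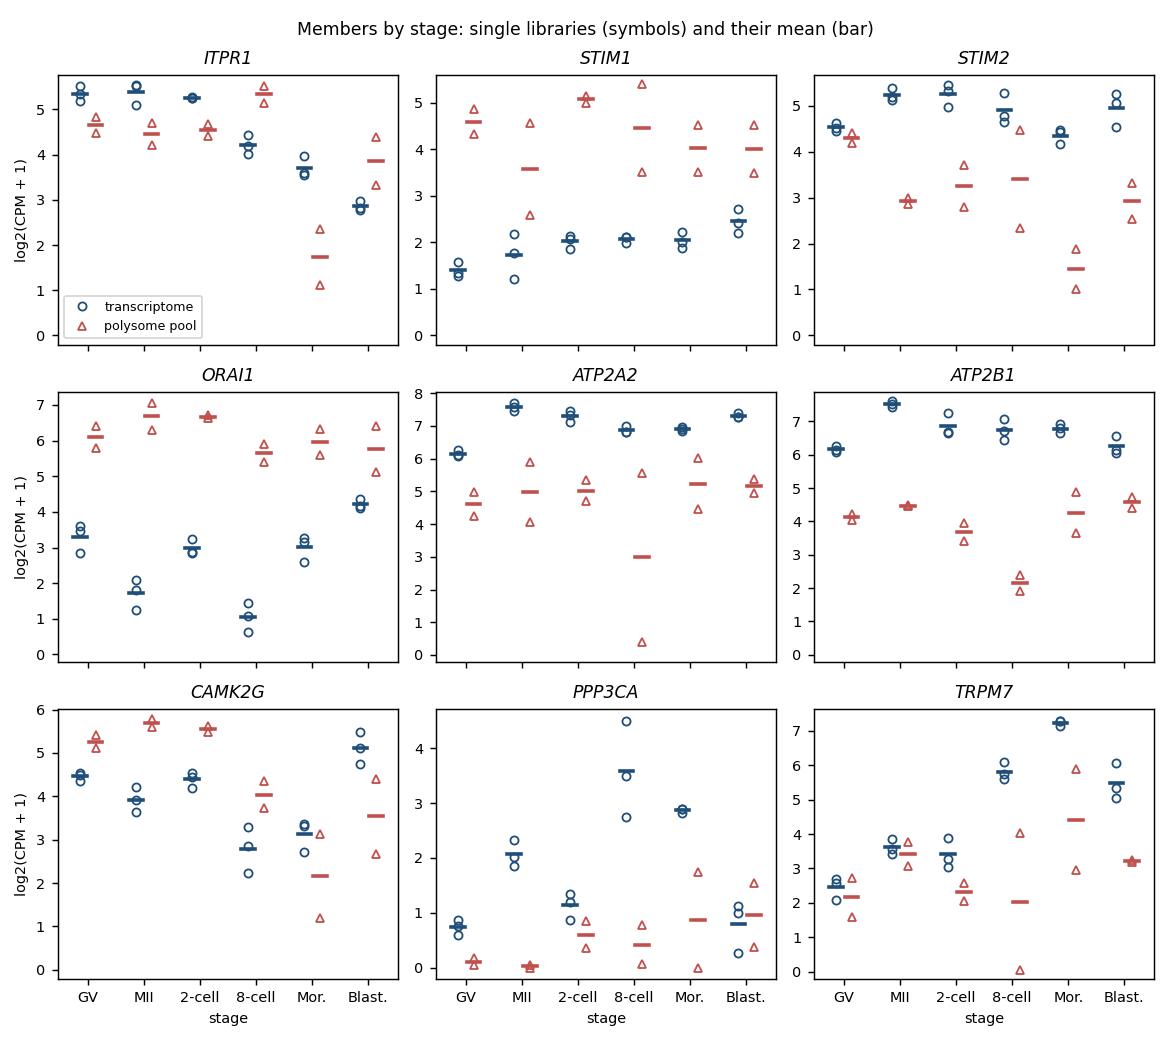
Levels of the 9 members by stage on the scale log2(CPM + 1), in single transcriptomes (circles, 3 per stage) and polysome pools (triangles, 2 per stage), with the mean as a bar; each panel has its own vertical scale. STIM1 and ORAI1 pools lie above the transcriptomes at every stage and ATP2A2 and ATP2B1 pools below, while ITPR1 changes side between the 2-cell stage, the 8-cell stage, the morula and the blastocyst.

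ITPR1, the IP3 receptor that releases the calcium store of mammalian eggs, fell in the transcriptome between the 2-cell and the 8-cell stage, while its polysome level was highest at the 8-cell stage. Its polysome rise to that stage was not called. Its transcriptome levels were 44.9, 39.5 and 35.5 CPM (GV), 45.1, 45.8 and 33.2 (MII), 37.6, 36.8 and 37 (2-cell stage), 20.7, 15.1 and 17.3 (8-cell stage), 10.7, 14.6 and 11 (morula) and 5.88, 6.84 and 6 (blastocyst). The first 3 stages overlapped, and each later stage lay wholly below the one before it. Polysome pools of ITPR1 held 21.3 and 27.6 CPM (GV), 24.9 and 17.6 (MII), 20.2 and 24.5 (2-cell stage), 34.5 and 44.5 (8-cell stage), 4.1 and 1.18 (morula) and 8.96 and 20.0 (blastocyst). So both 8-cell pools exceeded every other pool, and both morula pools lay below every other one. Most 8-cell counts came from a different fraction in each gradient, F10 in A (668 of 841) and F8 in B (1421 of 1641). The pool minus transcriptome difference was -0.71 ± 0.44 (SE, adjusted p = 0.208) at GV, -0.96 ± 0.44 (adjusted p = 0.0665; -1.15 and called with RLE factors, adjusted p = 0.0298) at MII and -0.73 ± 0.44 (adjusted p = 0.167) at the 2-cell stage. It turned to 1.15 ± 0.43 (adjusted p = 0.0234) at the 8-cell stage, -2.21 ± 0.48 (adjusted p = 0.000496) in morulae and 1.21 ± 0.44 (adjusted p = 0.0298) in blastocysts. These last 3 differences were called, in alternating directions. The 8-cell call was lost without pool B (0.96, adjusted p = 0.0957), transcriptome B (1.05, adjusted p = 0.0702) or transcriptome C (1.14, adjusted p = 0.0547), and with RLE factors (0.91, adjusted p = 0.0654) or pools of F9 and F10 alone (0.52, adjusted p = 0.371). The blastocyst call was lost without pool B (0.52, adjusted p = 0.456), without transcriptome A (1.17, adjusted p = 0.0716), B (1.26, adjusted p = 0.0563) or C (1.17, adjusted p = 0.078), and with RLE factors (1.06, adjusted p = 0.0546), library totals (0.86, adjusted p = 0.113) or F9 and F10 alone (1.27, adjusted p = 0.051). The morula call held when any 1 library was left out and with both other scalings.

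The change of ITPR1 between stages was tested in each kind of library and then between them. In the transcriptome it fell from the 2-cell to the 8-cell stage by 1.07 ± 0.39 on the log2 scale (adjusted p = 0.0254), and that call was lost without any 1 of the 3 2-cell transcriptomes (adjusted p 0.0517 to 0.0549) or without 8-cell transcriptome B or C (adjusted p = 0.0849 and 0.0639), and in the fit with pools of F9 and F10 (-1.05, adjusted p = 0.0551). In the polysome pools its change from the 2-cell to the 8-cell stage was not called (0.82 ± 0.47, adjusted p = 0.158). Polysome-occupied ITPR1 fell by 3.91 ± 0.53 (adjusted p = 8.79e-06) from the 8-cell stage to the morula and rose by 2.47 ± 0.5 (adjusted p = 0.00255) from there to the blastocyst. The polysome change minus the transcriptome change was 1.89 ± 0.62 (adjusted p = 0.0457) at the 2-cell to 8-cell step, -3.36 ± 0.63 (adjusted p = 0.00112) at the 8-cell to morula step and 3.42 ± 0.64 (adjusted p = 0.00133) at the morula to blastocyst step. At these 3 steps the polysome-occupied ITPR1 moved apart from its transcript. The first of the 3 was lost when any 1 of 8 of the 10 libraries of those stages was left out (1.77 to 2.04, adjusted p 0.0566 to 0.151), and with RLE factors (1.82, adjusted p = 0.0523) or pools of F9 and F10 alone (1.44, adjusted p = 0.2). The others held when any 1 library was left out. In fits of only the libraries compared none of the 3 differences of ITPR1 was called, with 1.84 (adjusted p = 0.0574), -3.34 (adjusted p = 0.107) and 3.39 (adjusted p = 0.0531).

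STIM1 senses calcium in the lumen of the endoplasmic reticulum and opens ORAI channels when the store is empty. It was low in the transcriptome and higher in the polysome pools at every stage. Single transcriptomes of STIM1 held 1.97, 1.54 and 1.42 CPM (GV), 3.55, 2.43 and 1.31 (MII), 2.59, 3.2 and 3.38 (2-cell stage), 3.34, 2.96 and 3.31 (8-cell stage), 3.64, 3.04 and 2.69 (morula) and 5.59, 4.35 and 3.6 (blastocyst). Pools A and B held 28.1 and 19 CPM (GV), 22.8 and 5.04 (MII), 34.3 and 31 (2-cell stage), 10.4 and 41.1 (8-cell stage), 10.4 and 22 (morula) and 22.1 and 10.3 (blastocyst). Pools and transcriptomes overlapped at none of the 6 stages, and single transcriptomes held 11 to 45 counts of STIM1. The differences were 3.83 ± 0.65 (adjusted p = 4.7e-05), 2.52 ± 0.63 (adjusted p = 0.00155), 3.42 ± 0.64 (adjusted p = 9.33e-05), 3.0 ± 0.63 (adjusted p = 0.000309), 2.37 ± 0.62 (adjusted p = 0.00292) and 1.85 ± 0.62 (adjusted p = 0.0214) from GV to blastocyst. The MII difference rested on pool A (0.99, adjusted p = 0.244 without it). The blastocyst difference was lost without pool A (1.18, adjusted p = 0.23), transcriptome B (1.8, adjusted p = 0.0602) or transcriptome C (1.69, adjusted p = 0.0755), and with library totals (1.5, adjusted p = 0.0671). No step between stages was called for STIM1 in either kind of library, and all neighbouring pools in the order of their means overlapped.

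STIM2, the paralog that responds to smaller losses of store calcium, showed the opposite sign. As transcript, STIM2 measured 23.8, 20.8 and 22.1 CPM (GV), 41, 34.1 and 35.7 (MII), 43.1, 39.2 and 30.5 (2-cell stage), 24.3, 37.9 and 26.4 (8-cell stage), 21.1, 16.9 and 20.7 (morula) and 22.3, 37.1 and 32.4 (blastocyst). Its polysome pools measured 20.4 and 17.2 CPM (GV), 6.3 and 6.97 (MII), 5.98 and 12.1 (2-cell stage), 21.4 and 4.09 (8-cell stage), 1.01 and 2.67 (morula) and 8.96 and 4.77 (blastocyst). The GV pools came close to the transcriptomes, the morula pools were the lowest, and the 8-cell pools disagreed with each other. STIM2 was lower in the pools in MII oocytes (-2.47 ± 0.58, adjusted p = 0.000819), 2-cell embryos (-2.06 ± 0.56, adjusted p = 0.00398), morulae (-3.39 ± 0.61, adjusted p = 7.06e-05) and blastocysts (-2.16 ± 0.57, adjusted p = 0.00414). At the GV stage the difference was -0.25 ± 0.52 (adjusted p = 0.753). At the 8-cell stage it was -1.21 ± 0.54 (adjusted p = 0.0585), and it passed the test without pool A (-2.85, adjusted p = 0.00053) and with RLE factors (-1.42, adjusted p = 0.0294). Leaving out 2-cell pool A (-1.64, adjusted p = 0.0721) or blastocyst pool B (-1.77, adjusted p = 0.0681) ended the call of that stage, as did pools of F9 and F10 alone (-2.32, adjusted p = 0.0638, and -1.85, adjusted p = 0.148). Polysome-occupied STIM2 fell by 2.77 ± 0.62 (adjusted p = 0.00135) from the 8-cell stage to the morula and rose by 1.88 ± 0.6 (adjusted p = 0.0373) from the morula to the blastocyst. The fall rested on 8-cell pool A (-1.13, adjusted p = 0.111 without it). The rise was lost without morula pool A (1.38, adjusted p = 0.187) or blastocyst pool A (1.36, adjusted p = 0.208), and with library totals (1.77, adjusted p = 0.0543) or F9 and F10 alone (2.22, adjusted p = 0.182). STIM2 changed differently in pools and transcriptomes by -2.33 from GV to MII with RLE factors (adjusted p = 0.0466) and by -2.47 from the 8-cell stage to the morula with library totals (adjusted p = 0.037), which the main scaling did not call.

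ORAI1 is the plasma membrane channel that STIM proteins open, and its transcript went down and up again at consecutive stages while its polysome pools stayed high. Whole-cell ORAI1 measured 11.2, 6.15 and 10.1 CPM (GV), 1.37, 3.24 and 2.5 (MII), 6.24, 6.31 and 8.35 (2-cell stage), 1.71, 0.538 and 1.13 (8-cell stage), 7.93, 5.01 and 8.62 (morula) and 19.4, 16.4 and 17 (blastocyst). On polysomes, ORAI1 measured 54.8 and 83.6 CPM (GV), 78 and 132 (MII), 105 and 97.6 (2-cell stage), 58.9 and 41.3 (8-cell stage), 47 and 78.9 (morula) and 84.1 and 33.7 (blastocyst). The highest mean of the transcriptome was 15.6 times the lowest, and the highest mean of the pools 2.09 times the lowest. The pool minus transcriptome difference was 2.91 ± 0.47 (adjusted p = 2.32e-05) at GV, 5.46 ± 0.52 (adjusted p = 4.11e-09) at MII, 3.86 ± 0.48 (adjusted p = 4.76e-07) at the 2-cell stage, 5.46 ± 0.53 (adjusted p = 9.27e-09) at the 8-cell stage, 3.13 ± 0.47 (adjusted p = 8.25e-06) in the morula and 1.74 ± 0.46 (adjusted p = 0.00412) in the blastocyst. Without blastocyst pool A the last value was 0.92 (adjusted p = 0.187). ORAI1 differed most at the 2 stages at which its transcript was lowest, which follows from pools that varied less than the transcriptomes. Those transcriptomes held 12, 32 and 21 counts at MII and 20, 6 and 13 at the 8-cell stage.

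Transcript of ORAI1 fell by 1.95 ± 0.45 (adjusted p = 0.00271) from GV to MII, rose by 1.55 ± 0.44 (adjusted p = 0.0201) to the 2-cell stage, fell by 2.62 ± 0.46 (adjusted p = 5.94e-05) to the 8-cell stage, rose by 2.66 ± 0.47 (adjusted p = 0.000364) to the morula and rose by 1.29 ± 0.43 (adjusted p = 0.0306) to the blastocyst. It was the only member whose transcriptome change was called at all 5 steps. The rise from MII to the 2-cell stage was lost without MII transcriptome A (1.26, adjusted p = 0.123), MII transcriptome C (1.56, adjusted p = 0.0671) or 2-cell transcriptome C (1.4, adjusted p = 0.0833). The rise from morula to blastocyst was lost without any 1 of the 6 transcriptomes of those stages (1.09 to 1.45, adjusted p 0.0506 to 0.133), and with library totals (1.18, adjusted p = 0.0659). In the polysome pools no step of ORAI1 was called, and the largest, from the 2-cell to the 8-cell stage, was -1.02 ± 0.51 (adjusted p = 0.102). The polysome change exceeded the transcriptome change by 2.55 ± 0.68 (adjusted p = 0.0149) from GV to MII and was 2.33 ± 0.68 lower (adjusted p = 0.0262) from the 8-cell stage to the morula. The first was lost without GV pool A (2.27, adjusted p = 0.108) or MII pool B (2.12, adjusted p = 0.084). The second was lost without 8-cell pool A, morula pool A, 8-cell transcriptome B, morula transcriptome A or morula transcriptome C (-2.25 to -2.0, adjusted p 0.0513 to 0.0969), and in a fit of only the libraries compared (-2.33, adjusted p = 0.199).

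Both calcium pumps on the list were lower in the pools. ATP2A2 encodes SERCA2, which pumps calcium back into the endoplasmic reticulum. The transcriptomes gave ATP2A2 levels of 76.1, 68 and 67.1 CPM (GV), 191, 205 and 176 (MII), 159, 176 and 139 (2-cell stage), 112, 111 and 126 (8-cell stage), 119, 124 and 114 (morula) and 153, 154 and 168 (blastocyst). Its pools A and B gave 17.9 and 30.7 CPM (GV), 15.9 and 58.1 (MII), 25.1 and 39.7 (2-cell stage), 0.328 and 46.4 (8-cell stage), 20.8 and 64.1 (morula) and 41 and 29.7 (blastocyst). Every pool lay below every transcriptome of its stage, but the pools of a stage differed from each other, most at the 8-cell stage, where pool A had 8 counts and pool B 1713. The differences were -1.54 ± 0.84 (adjusted p = 0.151) at GV, -2.36 ± 0.87 (adjusted p = 0.0242) at MII, -2.29 ± 0.87 (adjusted p = 0.0318) at the 2-cell stage, -2.31 ± 0.87 (adjusted p = 0.0265) at the 8-cell stage, -1.49 ± 0.84 (adjusted p = 0.139) in the morula and -2.16 ± 0.87 (adjusted p = 0.0496) in the blastocyst. Without MII pool A the call at MII was lost (-1.77, adjusted p = 0.194), and the 2-cell call was lost without pool A (-2.0, adjusted p = 0.176), pool B (-2.66, adjusted p = 0.0857), transcriptome A (-2.28, adjusted p = 0.0521) or transcriptome B (-2.2, adjusted p = 0.0599). The blastocyst call was lost without any 1 of its 5 libraries (-2.43 to -1.95, adjusted p 0.0724 to 0.209). Without 8-cell pool B, polysome-occupied ATP2A2 changed by -6.59 from the 2-cell to the 8-cell stage (adjusted p = 8.66e-07) and by 6.98 from there to the morula (adjusted p = 7.48e-07), where the fit over all libraries gave -0.47 ± 0.87 and 0.86 ± 0.88 with no call.

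ATP2B1, a plasma membrane pump that expels calcium from the cell, had the smallest standard errors of the members in the comparison of pools with transcriptomes. ATP2B1 transcript stood at 70.1, 76.2 and 66.2 CPM (GV), 173, 181 and 194 (MII), 102, 152 and 99.2 (2-cell stage), 132, 85.9 and 104 (8-cell stage), 98.6, 119 and 110.0 (morula) and 65.6, 94.3 and 70.0 (blastocyst). Polysome pools of ATP2B1 stood at 17.8 and 15.4 CPM (GV), 21.5 and 21 (MII), 14.6 and 9.69 (2-cell stage), 2.75 and 4.23 (8-cell stage), 11.6 and 28.4 (morula) and 20.3 and 25.7 (blastocyst). Pools and transcriptomes were far apart at each stage, and the 8-cell pools were the lowest of the 12. The differences were -2.09 ± 0.36 (adjusted p = 5.79e-05), -3.1 ± 0.38 (adjusted p = 2.43e-07), -3.27 ± 0.39 (adjusted p = 2.02e-07), -4.94 ± 0.42 (adjusted p = 1.56e-09), -2.45 ± 0.37 (adjusted p = 8.13e-06) and -1.74 ± 0.36 (adjusted p = 0.000446) from GV to blastocyst. None of these calls was lost when 1 library was left out, while pools of F9 and F10 alone ended the GV call (-2.33, adjusted p = 0.071) and the one in blastocysts (-1.84, adjusted p = 0.136). The transcript rose by 1.37 ± 0.3 (adjusted p = 0.00209) from GV to MII. Polysome-occupied ATP2B1 fell by 1.8 ± 0.38 (adjusted p = 0.00056) from the 2-cell to the 8-cell stage and rose by 2.51 ± 0.39 (adjusted p = 3.85e-05) to the morula, while its transcript changed by -0.13 ± 0.3 (adjusted p = 0.728) and 0.03 ± 0.3 (adjusted p = 0.979). The changes in the 2 kinds of library differed at both steps, by -1.66 ± 0.48 (adjusted p = 0.0248) and 2.49 ± 0.48 (adjusted p = 0.0015). The first of these was lost without 2-cell pool A, 8-cell pool A, 2-cell transcriptome A or C, or 8-cell transcriptome A (-1.57 to -1.33, adjusted p 0.0575 to 0.134). With pools of F9 and F10 alone none of these changes of ATP2B1 was called. The transcript rise was 1.37 (adjusted p = 0.312), the polysome fall -2.07 (adjusted p = 0.104), the polysome rise 2.6 (adjusted p = 0.057) and the differences -1.95 (adjusted p = 0.369) and 2.57 (adjusted p = 0.21). Fits of only the libraries compared also ended both differences (-1.71, adjusted p = 0.0717, and 2.49, adjusted p = 0.0865).

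CAMK2G encodes a subunit of calmodulin-dependent kinase II, the isoform that mouse eggs need to leave meiosis. In whole cells, CAMK2G reached 22.1, 21.5 and 19.6 CPM (GV), 17.5, 14.2 and 11.5 (MII), 20.8, 17.3 and 22.4 (2-cell stage), 3.68, 6.27 and 8.79 (8-cell stage), 8.96, 9.3 and 5.6 (morula) and 25.9, 43.5 and 33.8 (blastocyst). Polysome-occupied CAMK2G measured 33.5 and 41.5 CPM (GV), 54.5 and 47.1 (MII), 43.4 and 48 (2-cell stage), 19.5 and 12.2 (8-cell stage), 1.3 and 7.82 (morula) and 20.2 and 5.36 (blastocyst). All pools lay above the transcriptomes up to the 8-cell stage, they overlapped in morulae, and in blastocysts both pools lay below. CAMK2G was higher in the pools in MII oocytes (1.82 ± 0.56, adjusted p = 0.00772) and 8-cell embryos (1.34 ± 0.56, adjusted p = 0.0425). Elsewhere the difference was 0.83 ± 0.55 (adjusted p = 0.24) at GV, 1.18 ± 0.55 (adjusted p = 0.078) at the 2-cell stage, -0.79 ± 0.58 (adjusted p = 0.256) in the morula and -1.43 ± 0.59 (adjusted p = 0.0571) in the blastocyst. The 8-cell call was lost without pool A (0.97, adjusted p = 0.212), transcriptome A (1.07, adjusted p = 0.143) or transcriptome B (1.34, adjusted p = 0.0823), and with RLE factors (1.1, adjusted p = 0.0861), library totals (1.25, adjusted p = 0.0698) or F9 and F10 alone (1.14, adjusted p = 0.14). The blastocyst difference passed the test in the lower direction without pool A (-2.7, adjusted p = 0.0108) and with RLE factors (-1.57, adjusted p = 0.0348) or library totals (-1.75, adjusted p = 0.0295), and the morula difference without pool B (-2.61, adjusted p = 0.00405). The transcript fell by 1.69 ± 0.52 (adjusted p = 0.00904) from the 2-cell to the 8-cell stage and rose by 2.11 ± 0.53 (adjusted p = 0.00467) from the morula to the blastocyst. Without 8-cell transcriptome A that fall was -1.42 (adjusted p = 0.0501). In the pools CAMK2G fell by 1.53 ± 0.63 (adjusted p = 0.0481) at the first of these steps and by 1.79 ± 0.64 (adjusted p = 0.0302) from the 8-cell stage to the morula. The first fall was lost without any 1 of its 4 pools (-1.9 to -1.23, adjusted p 0.0539 to 0.183) and with library totals (-1.56, adjusted p = 0.0562), and the second without 8-cell pool A (-1.41, adjusted p = 0.126) or morula pool A (-1.01, adjusted p = 0.26). F9 and F10 alone ended both (-1.42, adjusted p = 0.118, and -1.2, adjusted p = 0.214).

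PPP3CA encodes the catalytic alpha subunit of calcineurin, the phosphatase that calcium and calmodulin activate, and its pools held few counts at every stage. Transcript of PPP3CA amounted to 0.683, 0.82 and 0.507 CPM (GV), 4.01, 3.04 and 2.62 (MII), 1.29, 1.52 and 0.827 (2-cell stage), 21.6, 5.74 and 10.3 (8-cell stage), 6.44, 6.08 and 6.46 (morula) and 1.18, 0.207 and 1 (blastocyst). The pools A and B held 5 and 1 counts at GV, 1 and 0 at MII, 29 and 9 at the 2-cell stage, 1 and 26 at the 8-cell stage, 0 and 82 in the morula and 44 and 7 in the blastocyst. A count of 0 allows up to 0.107 CPM in MII pool B and 0.145 CPM in morula pool A, the level of 3 counts. In CPM the pools lay between 0.0 and 2.36, so folds against them rest on few reads. The transcript rose by 3.36 ± 1.14 (adjusted p = 0.0166) from the 2-cell to the 8-cell stage. That rise was lost without 2-cell transcriptome A (3.41, adjusted p = 0.05) or C (3.15, adjusted p = 0.0637), or without 8-cell transcriptome A (2.72, adjusted p = 0.0702). PPP3CA was lower in the pools in MII oocytes (adjusted p = 0.00145), where the transcriptomes together had 87 counts and the pools 1. The ratio of transcriptome to pool there was 180.0, with an exact interval of 31.4 to 7170.0 at 95% confidence that covers counting error only. In 8-cell embryos it was also lower (-5.02 ± 1.47, adjusted p = 0.00559). No other stage was called, and without morula pool B, the pool with 82 counts, the morula difference passed the test (adjusted p = 0.00154).

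TRPM7, a plasma membrane channel for calcium and magnesium with a kinase domain, was the member whose transcript rose most with development. TRPM7 transcript was counted at 5.47, 4.92 and 3.24 CPM (GV), 9.62, 10.9 and 13.4 (MII), 13.8, 8.71 and 7.3 (2-cell stage), 66.7, 52.2 and 48 (8-cell stage), 154, 155 and 140.0 (morula) and 32.3, 66.3 and 39.8 (blastocyst). On polysomes it was counted at 5.63 and 2.03 CPM (GV), 12.6 and 7.37 (MII), 4.92 and 3.14 (2-cell stage), 15.3 and 0.0271 (8-cell stage), 6.7 and 57.8 (morula) and 8.09 and 8.55 (blastocyst). The mean of the morula transcriptomes was 32.9 times that of the GV transcriptomes, and the pools did not follow in both gradients. Transcript rose by 2.48 ± 0.89 (adjusted p = 0.0225) from the 2-cell to the 8-cell stage. This rise was lost without 2-cell transcriptome B (2.4, adjusted p = 0.0691) or C (2.3, adjusted p = 0.0783), or 8-cell transcriptome A (2.33, adjusted p = 0.052). TRPM7 was lower in the 8-cell pools (-2.87 ± 1.06, adjusted p = 0.0239). The differences at the other stages were -0.25 ± 0.96 (adjusted p = 0.883), -0.18 ± 0.95 (adjusted p = 0.905), -1.3 ± 0.99 (adjusted p = 0.279), -2.21 ± 1.02 (adjusted p = 0.0725) and -2.47 ± 1.04 (adjusted p = 0.0611) in GV, MII, 2-cell, morula and blastocyst. Without morula pool B the morula difference was -4.49 (adjusted p = 0.0139), and library totals took it past the test as well (-2.52, adjusted p = 0.0482). The blastocyst difference passed with RLE factors (-2.62, adjusted p = 0.049) or library totals (-2.81, adjusted p = 0.0392). With pools of F9 and F10 alone TRPM7 was lower at the 2-cell stage (-1.89, adjusted p = 0.0365), in morulae (-2.25, adjusted p = 0.0143) and in blastocysts (-2.24, adjusted p = 0.0209). Its pools then fell from the 2-cell to the 8-cell stage (-6.45, adjusted p = 7.66e-05) and rose to the morula (10.01, adjusted p = 3.08e-06). Both steps differed from those of the transcript (-8.95, adjusted p = 0.000116, and 8.58, adjusted p = 0.000133). At the 8-cell stage, F9 and F10 held 0 and 0 counts of TRPM7 in gradient A and 0 and 1 in gradient B. The size of these step values therefore depends on the prior count. Since 8-cell pool B held 1 count, the 2-cell to 8-cell change of the pools, 0.92 ± 1.05 with no call, was 1.92 (adjusted p = 0.0301) without that pool and -6.89 (adjusted p = 0.000166) without pool A.

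Changes between stages were called for 0 to 5 of the 9 members at a step, and these counts lay on both sides of the share of all genes called. In the transcriptome 2 of 9 members changed from GV to MII (18.6% of all genes), 1 from MII to the 2-cell stage (13.1%), 5 from there to the 8-cell stage (52.3%), 1 from there to the morula (15.4%) and 2 from there to the blastocyst (23.2%). Polysome pools showed 2 changed members at the 2-cell to 8-cell step (47.3% of all genes), 4 at the 8-cell to morula step (37.0%) and 2 at the morula to blastocyst step (14.2%). They showed 0 at the GV to MII step (5.43%) and 0 at the MII to 2-cell step (8.65%) by the edgeR quasi-likelihood test. At an unadjusted p below 0.05 these 2 steps had 1 and 2 members, the likelihood ratio test called 0 and 1, and DESeq2 called 0 and 0. For these counts no share of all genes was taken, so they are not read as changes of the members. The difference between polysome and transcriptome change was called for 1 member at the GV to MII step (10.6% of all genes), 2 at the 2-cell to 8-cell step (12.2%), 3 at the 8-cell to morula step (12.5%) and 1 at the morula to blastocyst step (12.3%). At the MII to 2-cell step it was called for 0 members (1.81% of all genes), with 2 at an unadjusted p below 0.05, 1 by the likelihood ratio test and 0 by DESeq2. The last 3 counts also stand without a share of all genes. Only ITPR1, ORAI1 and ATP2B1 had such a call at any step.

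RNA free of ribosomes was compared with the transcriptome in the same way. When F1 and F2 were summed in place of F8 to F10, 3 members were higher and 2 lower in GV oocytes, where 54.6% of genes differed. The counts were 3 and 3 at MII (58.2% of genes), 3 and 4 at the 2-cell stage (44.2%), 3 and 4 at the 8-cell stage (64.2%), 1 and 4 in the morula (47.4%) and 1 and 1 in the blastocyst (25.3%). ORAI1 was higher in F1 and F2 at all 6 stages, by 2.44 ± 0.45 (adjusted p = 0.000395) in blastocysts to 5.42 ± 0.51 (adjusted p = 6.78e-09) in 8-cell embryos. STIM1 was higher there at the first 4 stages, by 4.24 ± 0.71 (adjusted p = 2.25e-05) in GV oocytes. CAMK2G was higher at the same 4 stages, by 2.61 ± 0.54 (adjusted p = 0.000265) in GV oocytes, where its polysome pools had not differed by the test. ATP2B1 was lower at 5 stages, with the 8-cell stage not called (-1.83 ± 0.99, adjusted p = 0.106). ATP2A2 was also lower at 5, with the blastocyst not called (-0.94 ± 0.41, adjusted p = 0.092). Of the 3 calls of ITPR1 none appeared in the free fractions, in which its difference was 0.43 ± 0.53 (adjusted p = 0.48) at the 8-cell stage, 0.85 ± 0.53 (adjusted p = 0.185) in morulae and -0.91 ± 0.58 (adjusted p = 0.25) in blastocysts. Monosome pools (F3 to F5) of ITPR1 were higher than the transcriptomes at the 8-cell stage (1.19 ± 0.52, adjusted p = 0.0426), close to the polysome value of 1.15 ± 0.43. They were not called in morulae (-0.56 ± 0.54, adjusted p = 0.381) or blastocysts (1.07 ± 0.54, adjusted p = 0.108). In monosome pools STIM1 (2.13 to 5.1) and ORAI1 (2.28 to 5.28) were also called higher, and ATP2B1 lower (-4.83 to -2.29), at every stage. Each other member was called there at some stages only. No share of all genes was set beside these monosome calls. Gradient libraries and whole-cell libraries were made from different lysates, and in a comparison of pools with transcriptomes the kind of library and the occupancy by polysomes cannot be told apart.

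**Figure D2:**
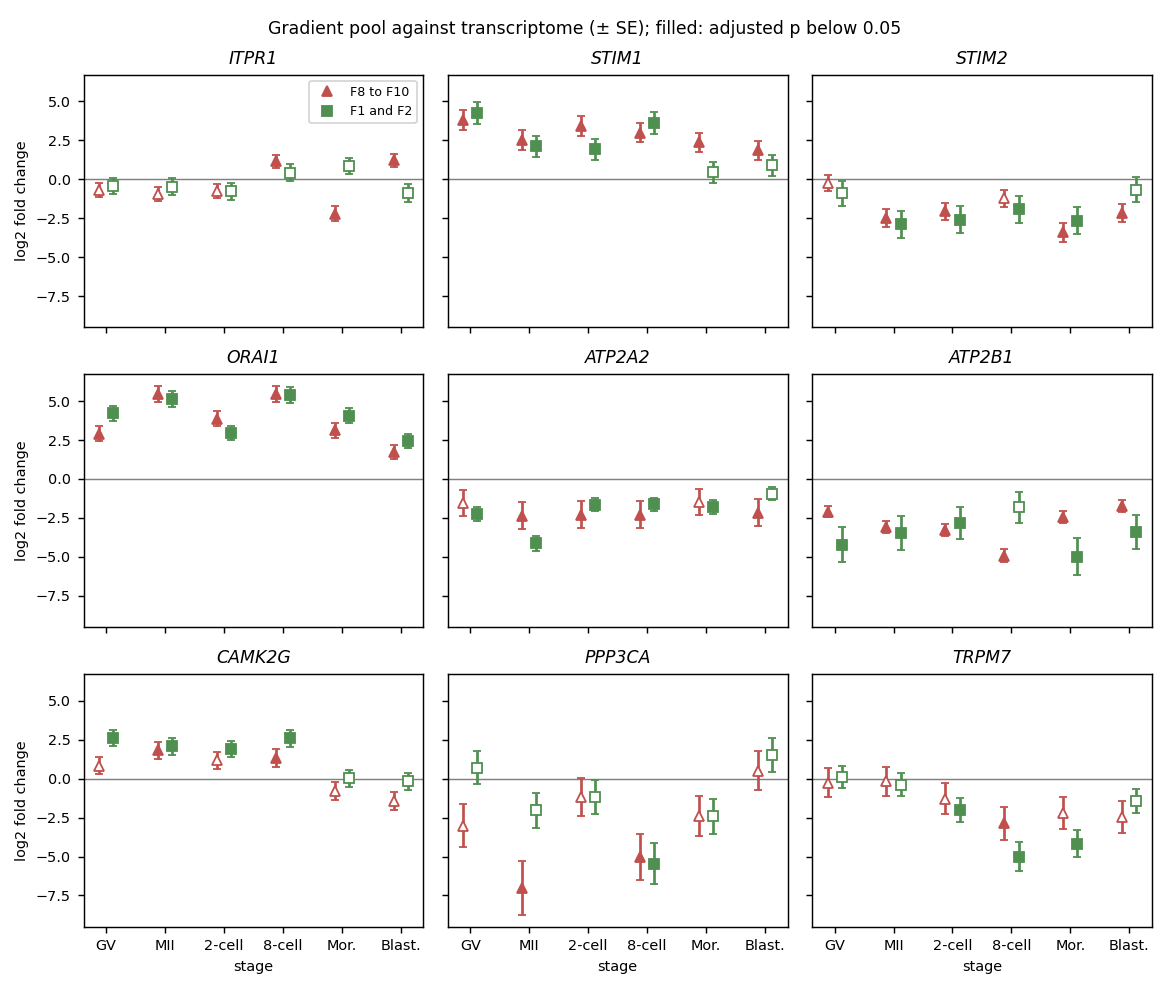
Log2 fold change over the transcriptome, with its standard error, of polysome fractions (F8 to F10, triangles) and of fractions free of ribosomes (F1 and F2, squares) at each stage for the 9 members; filled symbols have an adjusted p below 0.05. For ORAI1 both symbols are filled and above 0 at all 6 stages. For ITPR1 the polysome fractions were called at some stages and F1 and F2 at none. Monosome fractions (F3 to F5) are not drawn.

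Single fractions were then set against the transcriptomes of their stage. With all libraries scaled together, ORAI1 lay above all 3 transcriptomes of its stage in 113 of 120 fraction libraries, 23 of the 24 of F1 and F2 among them. STIM1 lay above in 94 and CAMK2G in 79 of 120. ATP2A2 lay below all 3 transcriptomes in 120 of 120 fraction libraries, ATP2B1 in 119, STIM2 in 114, TRPM7 in 105 and PPP3CA in 101. ITPR1 was mixed, with 24 above and 89 below. No share of all genes was set beside these counts, so they are not read as particular to the members. The fractions of a gradient are not independent samples, so the counts describe positions and not separate pools of embryos. Fractions with no count of a gene numbered 53 for PPP3CA, 19 for TRPM7, 11 for ATP2B1, 10 for STIM2 and 8 or fewer for each other member, and 3 counts correspond to 0.173 to 2.44 CPM before TMM in these libraries.

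Within the gradient, levels were compared with the position of the fraction, F3 to F10, by Spearman's rho over the 16 libraries of a stage (two-sided permutation test, adjusted over the genes with a mean of at least 1 CPM). Fractions of 1 gradient are not independent samples, so these p-values count positions and not embryos. A trend was called for 2 of 8 members tested at GV (36.8% of genes), 1 of 8 at MII (19.7%), 2 of 8 at the 2-cell stage (20.6%), 1 of 8 at the 8-cell stage (15.2%), 1 of 9 in the morula (1.66%) and 0 of 9 in the blastocyst (7.94%), where no unadjusted p was below 0.05. CAMK2G declined toward the polysomes in GV oocytes (rho = -0.72, adjusted p = 0.0106), 2-cell embryos (rho = -0.64, adjusted p = 0.0463) and 8-cell embryos (rho = -0.85, adjusted p = 0.00288). In GV oocytes it peaked at 173 and 202 CPM in F2 and held 114 and 88.0 in F3. It stood at 24.8 and 28.6 CPM in F9 and was higher again in F10, at 40.7 and 58.3. The transcriptomes held 18.4 to 21.3 CPM on the same scale. ATP2B1 rose toward the polysomes in GV oocytes (rho = 0.79, adjusted p = 0.0029) and MII oocytes (rho = 0.71, adjusted p = 0.0202). In GV oocytes it went from 1.83 and 2.79 CPM in F3 to 19.7 and 14.8 in F9, still below the transcriptomes of 62.4 to 70.3 CPM. In F10 it was lower again, at 14.8 and 8.14 CPM. ORAI1 rose along the gradient in 2-cell embryos (rho = 0.89, adjusted p = 0.00158) and declined in morulae (rho = -0.85, adjusted p = 0.014). In morulae it fell from 422 and 221 CPM in F3 to 58.2 and 37.6 in F10. ORAI1 of the 2-cell stage went from 29.8 and 48.1 CPM in F3 to 114 and 87.8 in F10, with 0.914 CPM in F6 of gradient A. With gradient A alone none of these 7 trends was called, and with gradient B alone only that of ORAI1 in 2-cell embryos.

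**Figure D3:**
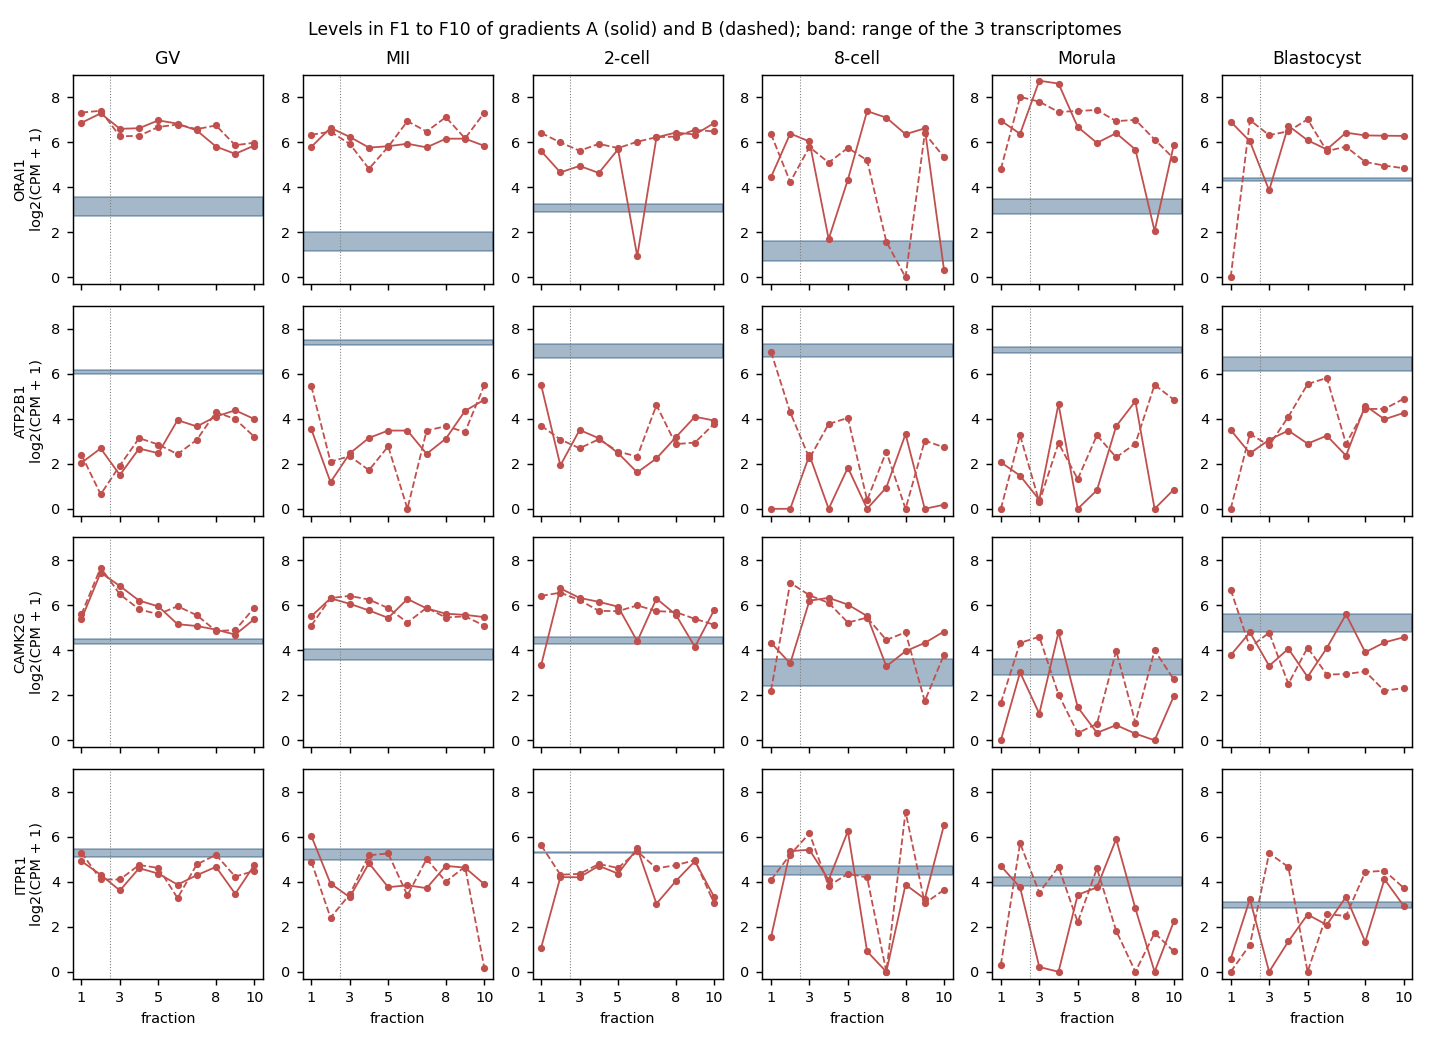
Levels of ORAI1, ATP2B1, CAMK2G and ITPR1 on the scale log2(CPM + 1) in F1 to F10 of gradients A (solid) and B (dashed) at 6 stages, with the range of the 3 transcriptomes as a band and a dotted line between F2 and F3. ORAI1 runs above the band and ATP2B1 below it along almost the whole gradient, and the gradients part visibly at the 8-cell stage and in morulae.

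Compared directly, polysome pools and monosome pools (F3 to F5) of the same gradients differed for 0 of 9 members at each stage in an edgeR quasi-likelihood fit of 24 pools with the gradient as a block. Over all genes 0.269% differed at GV, 0.202% at MII, 0.0% at the 2-cell stage, 8.74% at the 8-cell stage, 1.41% in the morula and 1.31% in the blastocyst. At an unadjusted p below 0.05, 1 member differed at the 8-cell stage and 2 in morulae. These were CAMK2G at the 8-cell stage, with 17.7 and 10.9 CPM in the polysome pools and 69.9 and 61.2 in the monosome pools (-2.24 ± 0.77, adjusted p = 0.0942), and in morulae ORAI1, with 47.5 and 69.4 against 364 and 165 CPM (-2.09 ± 0.66, adjusted p = 0.145), and ATP2B1, with 11.7 and 24.9 against 5.45 and 2.39 CPM (2.24 ± 0.96, adjusted p = 0.271). For these 3, both polysome pools lay on the same side of both monosome pools, but the same test had picked them, so this adds no support. Members not picked also lay so, such as CAMK2G and ATP2B1 in GV oocytes. Neither count was set beside a share of all genes. Without 8-cell gradient B, ATP2A2 was called lower in polysomes (-6.58, adjusted p = 0.0329), where polysome pool A had 8 counts.

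Beside the members, 121 other genes of calcium handling and egg activation were listed in 9 groups by role, of which 117 symbols were in the table and 110 passed the filter on low counts. In the pools 22, 31, 31, 24, 27 and 18 of these 110 genes were higher than in the transcriptome from GV to blastocyst, and 26, 31, 27, 36, 30 and 24 were lower. That is 43.6%, 56.4%, 52.7%, 54.5%, 51.8% and 38.2% of the list, where 39.8%, 57.5%, 51.0%, 59.1%, 51.7% and 40.1% of all genes were called. At all 6 stages, 6 of the 110 were higher (5.45%, against 9.92% of all genes) and 5 were lower (4.55%, against 5.78%). Paralogs of ORAI1, named outside the rule given next, were higher at all 6 stages (ORAI2) and at 1 stage (ORAI3). For each group the 2 genes with the highest mean level are named here.

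Over all genes, 22.2%, 30.8%, 29.1%, 28.0%, 26.5% and 20.0% were higher in the pools from GV to blastocyst and 17.7%, 26.7%, 21.9%, 31.0%, 25.2% and 20.1% were lower, and the counts of each group stand beside these shares. Of the 6 tested genes that refill the store, 2, 3, 2, 2, 4 and 2 were higher, and 1 was lower, in blastocysts. TMEM110, a partner of STIM1, was higher at all 6 stages, by 1.87 in the blastocyst to 4.85 at MII, and SARAF, which slows store-operated entry, was higher in the morula (0.84) and lower in the blastocyst (-1.29). Of the 6 pumps and exchangers that expel calcium, 1, 1, 1, 1, 3 and 2 were higher and 1, 1, 1, 2, 2 and 1 lower. SLC8B1, the mitochondrial exchanger, was higher at 6 stages (3.3 to 5.87). SLC8A1, the exchanger of the plasma membrane, had mean transcriptome levels of 163, 128 and 167 CPM up to the 2-cell stage and was lower in the pools from the 8-cell stage on. Of the 16 channels of the plasma membrane and lysosome, 4, 8, 7, 6, 2 and 2 were higher and 0, 2, 1, 3, 5 and 3 lower. TRPV6 stood at mean levels of 477, 355 and 330 CPM in the pools of the first 3 stages, beside 10.2, 1.75 and 6.86 CPM in the transcriptomes. TPCN1 was higher in the pools at the MII, 2-cell and 8-cell stages (3.48 to 4.56).

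Of the 19 genes that make IP3 or release the store, 2, 7, 8, 4, 5 and 2 were higher from GV to blastocyst and 1, 3, 4, 5, 5 and 4 lower. ITPKA, which phosphorylates IP3, was higher at 5 stages, with a mean of 185 CPM in the 8-cell pools against 16.3 in the transcriptomes. PLCH1, a phospholipase C, was lower in morulae and blastocysts, where its pools held at most 0.0241 CPM on average. Of 11 buffers and chaperones of the endoplasmic reticulum, 6, 7, 7, 8, 6 and 5 were lower and 1 was higher at each stage. The chaperones CANX and HSP90B1 were lower at 6 and 5 stages. Mitochondrial calcium uptake had 0, 0, 1, 1, 1 and 3 of 11 genes higher and 5, 6, 6, 6, 3 and 2 lower, the channels VDAC1 and VDAC2 among them at 5 and 4 stages. Of 13 genes of calmodulin and calmodulin-dependent kinases, 0, 2, 2, 1, 3 and 2 were higher and 4, 4, 4, 5, 2 and 0 lower. CALM2, a calmodulin gene, was lower at 5 stages. CALM3, which encodes the same protein and was named after its values were seen, was higher at 5, and reads may be split between near-identical copies. CALM2 had 5390 CPM in GV transcriptomes and 501 in GV pools on average. Of 13 calcineurin partners, 7, 6, 5, 4, 3 and 2 were higher and 3, 1, 0, 2, 4 and 2 lower. CHP1, a calcineurin-like protein, was higher at 3 stages and lower in blastocysts, and FKBP1A, an immunophilin that stabilizes calcium release channels, was higher at all 6. Of 15 effectors of egg activation, 5, 3, 4, 4, 5 and 2 were higher and 6, 7, 4, 5, 3 and 6 lower. ASTL, the cortical granule protease that alters the zona, had means of 3550, 6660 and 3170 CPM in the pools of the first 3 stages. Its transcriptomes there had means of 192, 81.5 and 103 CPM. WEE2, the kinase whose activity is needed for exit from meiosis, was lower in the pools at the first 3 stages (-2.64 to -1.39), higher in morulae (1.65), and lower in blastocysts, where its pools held no count.

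**Figure D4:**
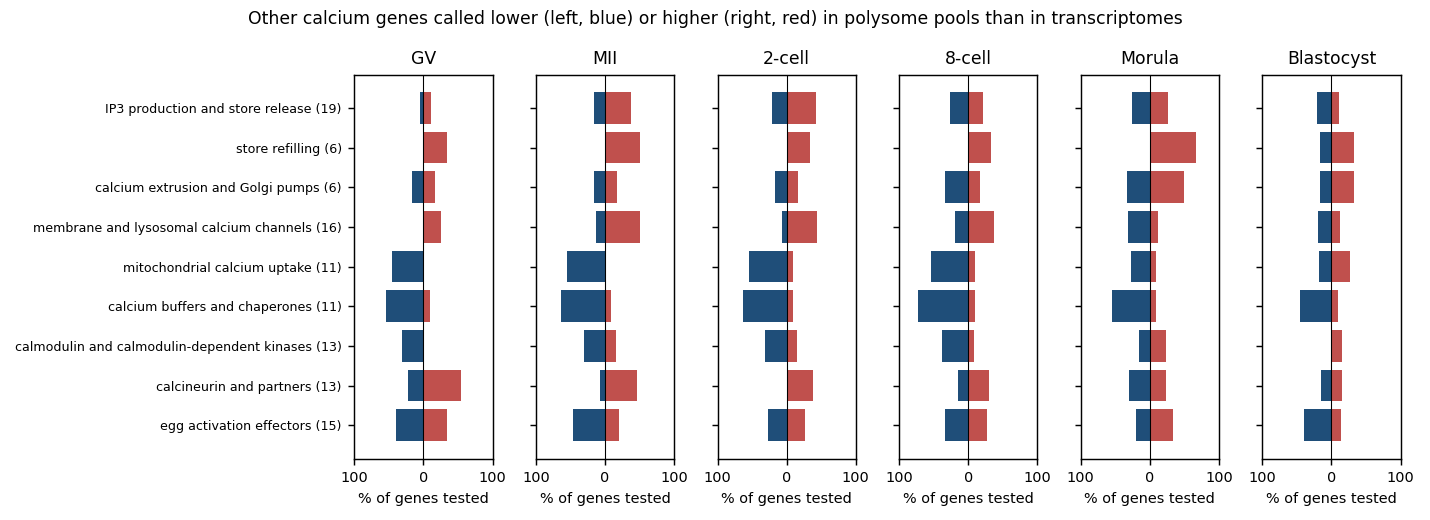
Share of the tested genes of each role list (their number in brackets) that were higher (right) or lower (left) in the polysome pools than in the transcriptomes at an adjusted p below 0.05, by stage. Buffers and chaperones stand on the lower side at every stage, and store refilling has no lower gene before the blastocyst.

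Levels of the members were also correlated across the 30 libraries. On log2(CPM + 1), Pearson's r was 0.86 between ATP2A2 and ATP2B1 and 0.8 between STIM1 and ORAI1, and -0.84 between ORAI1 and ATP2B1 and -0.67 between STIM1 and STIM2. These values describe 30 libraries that share stages and the split into pools and transcriptomes, and they stand without a test. The 2 genes with the closest patterns were PDLIM5 and CHN2 for ITPR1 (r = 0.872 and 0.869), TOP3A and HTT for STIM1 (0.939 and 0.937), and XPA and PNN for STIM2 (0.93 and 0.927). They were FAM110A and RCE1 for ORAI1 (0.968 and 0.964), EIF2AK4 and LIN7C for ATP2A2 (0.927 and 0.921), and MOB4 and CHM for ATP2B1 (0.964 and 0.961). For CAMK2G they were ZFP36L1 and SFRP1 (0.886 and 0.88), for PPP3CA PRKAR2B and ZNF711 (0.899 and 0.896), and for TRPM7 LPL and SYNE1 (0.862 and 0.861).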

How the data were processed

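Gradient fractions and whole oocytes or embryos were sequenced with a poly(A)-based Smart-seq2 kit. The authors quantified reads with Salmon on an Ensembl bovine annotation and deposited expected counts per gene symbol, not normalized. The version of Salmon is not given in the sources used here, and the build is named as UMD3.1 in the processing notes but differently in the methods, so no coordinates are printed. Of the values 11.7% are not whole. F8, F9 and F10 were summed per gradient and counts rounded. The 12 groups (18 transcriptomes, 12 pools) were fitted in 1 model with edgeR 4.0.16 in R 4.3.3 (filterByExpr, TMM, quasi-likelihood F test), two-sided, with Benjamini-Hochberg adjustment at 0.05 over all genes tested. Standard errors are the log2 fold change over the root of F. Trends used 100000 permutations. DESeq2 1.42.0 served as an alternative. The pools of F1 and F2 and of F3 to F5 were added after seeing the data. No 2 of 78 pairs of libraries of a group were identical, and 0 columns were unmapped. The scripts were tested on simulated data. All 9 members were named in each comparison. From each role list the 2 genes with the highest mean level were named (1 of them is not reported here), and for each member the 2 genes with the highest r. Members and lists were chosen with earlier results of these data known. Intervals cover counting error only. STIMATE is another symbol of TMEM110. PLCB3, RYR3 and PPP3R2 of the calcium list, and OOSP1, SOX2, DUXA, LEUTX and ARGFX of the markers, were not analysed here.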

Additional observations from a re-analysis of the deposited data

Results flagged for a closer look

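For 3 members the polysome pools and the transcriptomes changed differently between consecutive stages by the interaction term of the edgeR fit, whose values are the log2 change of the pools minus that of the transcriptomes. ITPR1 gave 1.89 ± 0.62 (adjusted p = 0.0457) from the 2-cell to the 8-cell stage. From the 8-cell stage to the morula, ITPR1 gave -3.36 ± 0.63 (adjusted p = 0.00112). Between morula and blastocyst it gave 3.42 ± 0.64 (adjusted p = 0.00133). ORAI1 differed by 2.55 ± 0.68 (adjusted p = 0.0149) from GV to MII. It differed by -2.33 ± 0.68 (adjusted p = 0.0262) from the 8-cell stage to the morula. ATP2B1 differed by -1.66 ± 0.48 (adjusted p = 0.0248) from the 2-cell to the 8-cell stage. In the next step, to the morula, ATP2B1 differed by 2.49 ± 0.48 (adjusted p = 0.0015). Of these 7 differences, 6 were not called in fits of only the libraries compared (ORAI1 from GV to MII was, with 2.7, adjusted p = 0.00328). With all libraries thinned to the lowest total 5 were not called, and those of ITPR1 from the 8-cell stage to the morula (-5.8, adjusted p = 0.0109) and from there to the blastocyst (5.01, adjusted p = 0.0293) were. Pools of F9 and F10 alone ended 3 of the 7, the first of ITPR1 (1.44, adjusted p = 0.2) and both of ATP2B1 (-1.95, adjusted p = 0.369, and 2.57, adjusted p = 0.21). RLE factors (1.82, adjusted p = 0.0523) and the replicate block (1.89, adjusted p = 0.0638) ended the first of ITPR1.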

How the results depend on the processing

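No source used here states that a letter marks the same culture in gradients and transcriptomes, and letters were not used as pairs. Deviations from the group mean correlated from -0.0687 to 0.0355 for the same letter. With 2 pools a stage the deviations of pools A and B mirror each other, so these values cannot decide whether letters pair libraries. With the letter as a replicate block the pools were higher than the transcriptome in 14 of 54 member comparisons and lower in 17. Under the block, 7 and 4 transcriptome changes, 2 and 4 polysome changes and 3 and 3 differences of changes were called higher and lower. The block ended the calls of ITPR1 (1.15, adjusted p = 0.056) and ATP2A2 (-2.13, adjusted p = 0.0561) in blastocysts and CAMK2G at the 8-cell stage (1.34, adjusted p = 0.0662), the polysome changes of CAMK2G from the 2-cell to the 8-cell stage (-1.52, adjusted p = 0.0652) and STIM2 from morula to blastocyst (1.87, adjusted p = 0.0587), and the first difference of changes of ITPR1 (1.89, adjusted p = 0.0638). Counts of member calls moved by over 1.5 times in these cases. With all libraries thinned to the lowest total, the pools were higher in 9 in place of 16 comparisons, transcriptome changes were 3 up in place of 7 and 1 down in place of 4, polysome changes 1 up in place of 3 and 2 down in place of 5, and differences of changes 1 up in place of 4 and 1 down in place of 3. Fits of only the libraries compared gave 14 rises and 11 falls in the transcriptome and 0 rises and 0 falls in the pools. Pools of F9 and F10 gave 3 polysome falls. The likelihood ratio test and DESeq2 each gave 6 differences of changes in the lower direction, and a trend over F1 to F10 gave 2 declines in place of 4. Leaving out 1 library gave 4 to 9 transcriptome rises, 2 to 6 polysome rises, 2 to 7 higher and 2 to 8 lower differences of changes, and 0 to 1 members lower in polysomes than in monosomes. Fewest transcriptome rises came without 2-cell transcriptome C, and most polysome rises without morula pool B. With 1 gradient, trends upward numbered 0 to 1 and downward 0 to 0.

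Directions turned for 3 members. With F1 and F2 in place of the polysome fractions, ITPR1 differed by 0.85 in morulae and -0.91 in blastocysts. TRPM7 in the pools changed by -6.45 from the 2-cell to the 8-cell stage with F9 and F10, and by -6.89 to 1.92 when 1 pool was left out. PPP3CA changed by -5.76 to 4.64 from the 8-cell stage to the morula and by -1.97 to 7.3 from there to the blastocyst when 1 pool was left out. The values -6.89, -5.76, 4.64 and 7.3 rest on a lone pool of 0 or 1 counts, so their size depends on the prior count. That of -6.45 does too, since 8-cell F9 and F10 held 0 and 0 counts of TRPM7 in gradient A and 0 and 1 in B. Without TMM, 80 of 108 mean levels stayed within 1 SD and 28 moved. In simulated data for the GV comparison over 14612 genes, 0 of 100 genes changed 2-fold and 20 of 100 changed 4-fold were recovered with 0 false calls. Only these genes were changed in the simulation, while 39.8% of genes were called in the data. The adjustment over all genes was thus stricter in the simulation, and its recovery is no estimate for the data.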
